A study of Mus musculus with 6 samples.

Results

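The genes described here are 7 heparin-binding growth factors and receptors of the stroma: Hgf, Ptn (pleiotrophin) and Mdk (midkine) as ligands, and Met, Ptprz1, Alk and Sdc3 as receptors. They are 7 of 19936 genes measured on Affymetrix arrays in mouse embryonic fibroblasts, and they were chosen by function, with earlier results of these data known. The HA-Fbxl10 group held 3 RNA samples of Tet-off fibroblasts, a line whose transgenes are under a transactivator that tetracycline switches off, transfected with an HA-tagged Fbxl10 cDNA and a hygromycin resistance plasmid and selected as clones. The controls were 3 RNA samples of the same Tet-off line without transfection. All 6 samples share the Tet-off background, none carried an empty vector, and the sources used here do not say how many clones gave the HA-Fbxl10 RNA. Kdm2b is the current name of Fbxl10, a histone demethylase gene, and its product has a CXXC domain that binds unmethylated CpG and belongs to a variant Polycomb complex.

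Hepatocyte growth factor is secreted by mesenchymal cells as an inactive precursor, is cut by serine proteases and then activates the receptor tyrosine kinase Met, mostly on epithelial cells. Pleiotrophin and midkine are small basic proteins that form a family of their own and are made in quantity in the embryo. They bind the chondroitin sulfate chains of the receptor phosphatase Ptprz1 and the heparan sulfate chains of syndecans such as Sdc3, and they have been linked to the receptor tyrosine kinase Alk. All 3 ligands bind heparin, so sulfated sugar chains take part in their capture at the cell surface.

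Each of the 7 genes had 1 probe set with a single gene name, so the rule of taking the brightest probe set decided nothing among them. No filter on low values was applied, and all 7 entered the test. Values are log2 expression values after RMA, a method that corrects the background, makes the arrays' distributions alike and combines the probes of a probe set. Arrays correlated at 0.994 to 0.996 within groups and 0.990 to 0.992 between groups over all probe sets (Pearson), and precision is limited throughout by how few arrays there are. The labels do not tie the samples to separate cultures, and every p-value here rests on a spread between samples that may be technical only. Kdm2b, the transfected gene, stood at 9.77, 9.75 and 9.58 in HA-Fbxl10 samples and at 7.38, 7.45 and 7.28 in controls, as the labels require.

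Of the 7 genes, 2 ligands fell, Hgf and Ptn, 1 receptor rose, Met, and 4 did not pass the test, Mdk, Ptprz1, Alk and Sdc3. The test was limma's moderated test with Benjamini-Hochberg adjustment over all genes and a threshold of 0.05. Over all genes 21.1% passed it, 10.5% higher and 10.6% lower. The same 3 of 7 genes had groups that did not overlap, against 36% of all genes. The median log2 difference of the 7 was -0.02, and that of all genes was 0.00. These counts describe the 7 genes and say nothing of the family against other genes.

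**Figure D1:**
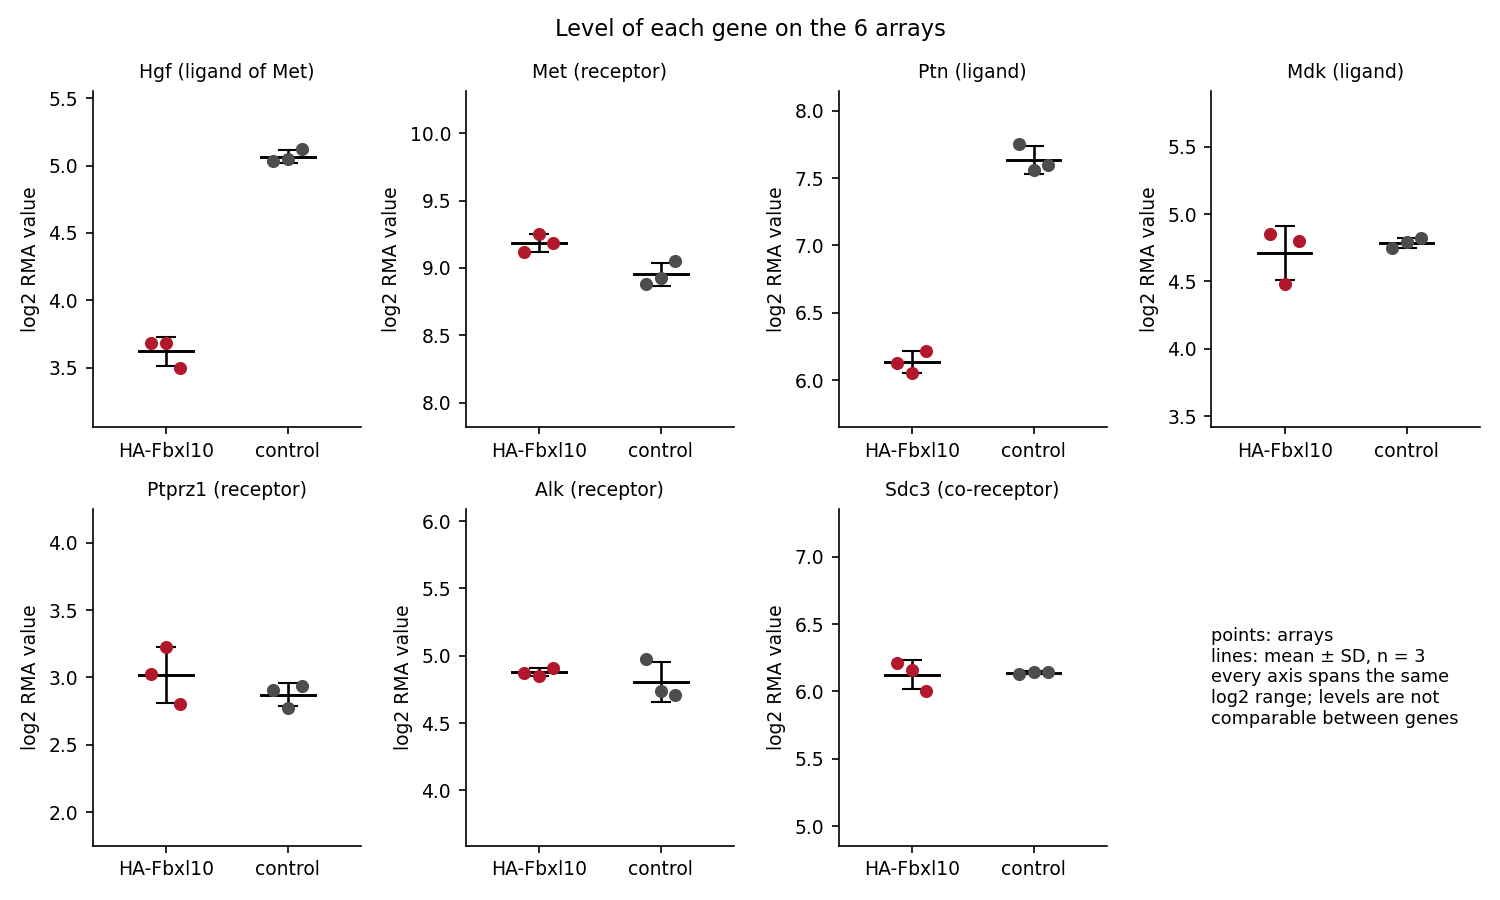
Log2 RMA value of each of the 7 genes (vertical axes, each spanning the same log2 range) on the 3 HA-Fbxl10 and 3 control arrays (horizontal axis), with points for arrays and lines for the mean ± SD. Hgf and Ptn lie lower on every HA-Fbxl10 array than on any control array, Met lies slightly higher, and the groups overlap for Mdk, Ptprz1, Alk and Sdc3.

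Hgf had log2 values of 3.69, 3.68 and 3.49 in HA-Fbxl10 samples, against 5.03, 5.05 and 5.12 in controls. All HA-Fbxl10 values lay more than a log2 unit under the lowest control value. The means were 3.62 ± 0.11 in HA-Fbxl10 samples and 5.07 ± 0.05 in controls (SD, n = 3 each), a difference of -1.45 ± 0.07 (SE, limma adjusted p = 3.26e-06), which is 2.72-fold lower. Only 47 of the 19936 genes had a more negative difference. The HA-Fbxl10 mean lay below the lower quartile of genes in that group (3.74) and the control mean lay below the median of genes in its group (5.38). At such levels RMA values cannot separate signal from background, so the size of the fall is uncertain. In RNA from whole cultures, fewer cells that express a gene and less RNA per cell cannot be told apart, here and for every gene below.

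Ptn had log2 values of 6.13, 6.05 and 6.21 in HA-Fbxl10 samples, against 7.75, 7.56 and 7.60 in controls. The groups were far apart, and the spread within each was small beside the gap. The means were 6.13 ± 0.08 in HA-Fbxl10 samples and 7.64 ± 0.10 in controls (SD, n = 3 each), a difference of -1.50 ± 0.08 (SE, limma adjusted p = 3.26e-06), or 2.84-fold lower. Both means lay above the median of genes. Only 43 genes had a more negative difference.

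Mdk, the other member of the pleiotrophin family, had log2 values of 4.85, 4.48 and 4.80 in HA-Fbxl10 samples, against 4.75, 4.79 and 4.82 in controls. The HA-Fbxl10 values lay on both sides of the controls, with replicate 2 the lowest. The difference was -0.08 ± 0.10 (SE, 95% interval -0.29 to 0.14, limma adjusted p = 0.676), and it was 0.04 without HA-Fbxl10 replicate 2. Both means lay between the lower quartile and the median of genes, where signal and background are not separated, so the change of Mdk RNA may be larger than its RMA values show. The change of Ptn differed from that of Mdk by -1.43 ± 0.11 on the log2 scale (SE), a value with the same limit. The exact two-sided permutation p of this difference was 0.1, the smallest that 3 against 3 samples allow, and 0.12 after adjustment over the 6 pairs of genes compared. The pairs of Hgf with Ptn and Met and of Ptn with Ptprz1 and Alk were among them. Each of these also holds a dim gene, so their differences have no certain size either. Hgf against Ptn differed by 0.06 ± 0.13 (SE, exact permutation p = 0.6, adjusted 0.6). Hgf against Met (-1.68), Ptn against Ptprz1 (-1.65) and Ptn against Alk (-1.58) each had an exact permutation p of 0.1, adjusted 0.12.

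Windows of sequence before the annotated starts are shown because Kdm2b binds DNA at CpG and because Hgf and Ptn moved together. RefSeq windows (GRCm38.p6) matched 6 of the 7 genes by symbol, all but Mdk. Only the 250 bases before each start were used. The 3 windows printed are the first of Hgf, that of Ptn and, as a gene that did not pass the test, that of Sdc3. They lie at chr5:16553245-16553494 on the plus strand (Hgf), chr6:36810180-36810429 on the minus strand (Ptn) and chr4:130792287-130792536 on the plus strand (Sdc3). Each reads 5′ to 3′ toward the start, and capitals mark every CG dinucleotide.
Hgf: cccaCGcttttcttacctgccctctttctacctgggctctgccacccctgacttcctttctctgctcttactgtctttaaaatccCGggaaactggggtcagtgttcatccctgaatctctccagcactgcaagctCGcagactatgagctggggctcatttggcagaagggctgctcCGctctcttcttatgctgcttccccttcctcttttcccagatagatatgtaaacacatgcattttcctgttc
Ptn: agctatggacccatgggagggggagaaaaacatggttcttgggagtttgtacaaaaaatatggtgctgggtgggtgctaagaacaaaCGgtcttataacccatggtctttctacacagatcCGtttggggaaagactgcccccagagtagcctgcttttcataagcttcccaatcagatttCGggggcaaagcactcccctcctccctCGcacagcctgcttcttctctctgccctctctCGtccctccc
Sdc3: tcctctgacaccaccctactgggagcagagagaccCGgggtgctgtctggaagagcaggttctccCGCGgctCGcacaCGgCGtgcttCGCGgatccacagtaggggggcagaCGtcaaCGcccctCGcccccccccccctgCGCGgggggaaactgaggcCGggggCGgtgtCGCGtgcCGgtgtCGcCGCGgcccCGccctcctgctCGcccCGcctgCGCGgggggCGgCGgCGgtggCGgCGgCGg

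The Hgf window held 4 CG and the Ptn window 5, against 32 in the Sdc3 window, the most among the 6 genes. A second annotated start of Hgf, inside the gene, also had 5 CG in its window. CG was counted as the letters CG, which read the same on both strands, and 92.1% of 32851 windows of this length held at least 1. At most as many CG were found in 44.4% of all windows for Hgf and 49.6% for Ptn, so both windows lay near the middle of the distribution. Met with 24, Ptprz1 with 22 and Alk with 23 CG stood, like Sdc3, in the upper part of the distribution, each with at least as many CG as 86.7% of windows.

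**Figure D2:**
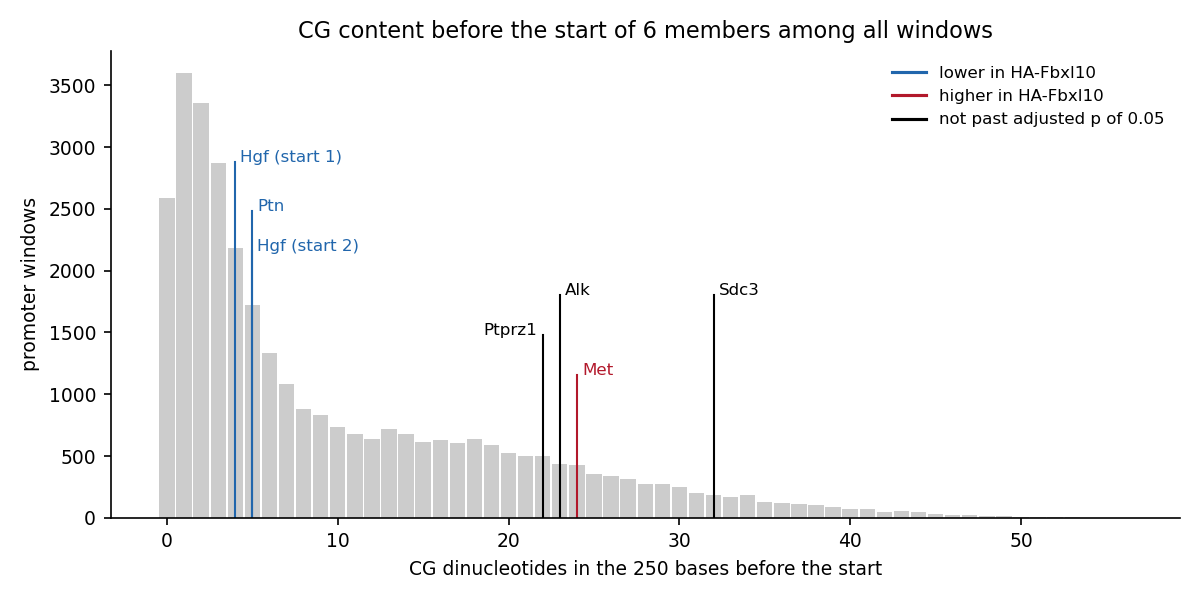
Number of RefSeq windows (vertical axis) by their count of CG dinucleotides in the 250 bases before the start (horizontal axis), with lines at the windows of 6 of the 7 genes, coloured by the test. Both genes that fell lie at 4 or 5 CG, and the other 4 lie at 22 to 32.

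A window was called CpG-rich where its observed over expected CG ratio was at least 0.6 and its GC content at least 50%. The ratios were 0.271 for the first Hgf window, 0.335 for the second and 0.298 for Ptn, and 0.704 for Met, 0.698 for Ptprz1, 0.871 for Alk and 0.877 for Sdc3. So 4 of the 6 genes had a CpG-rich window, and the 2 that fell did not. Of 15614 measured genes with a window, 8058 had no CpG-rich window, and of these 7.71% fell and 5.70% rose. Of the 7556 with one, 14.2% fell and 16.3% rose. Among genes above the median level, 21.2% of the 2215 CpG-poor genes and 16.5% of the 5845 CpG-rich genes fell, while 16.6% and 20.2% rose. Ptn is one of these CpG-poor genes, and Hgf lies below that level. These shares are a description across genes, which are not replicates, and a link of CG content to the falls of Hgf and Ptn was not tested.

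Met, the receptor of Hgf, had log2 values of 9.12, 9.25 and 9.19 in HA-Fbxl10 samples, against 8.88, 8.93 and 9.05 in controls. The groups did not overlap, but the lowest HA-Fbxl10 value and the highest control value lay close together. The means were 9.19 ± 0.07 in HA-Fbxl10 samples and 8.95 ± 0.09 in controls (SD, n = 3 each), a difference of 0.23 ± 0.07 (SE, limma adjusted p = 0.0472), or 1.17-fold higher. The call was lost without HA-Fbxl10 replicate 1 (0.27, adjusted p = 0.062), replicate 2 (0.20, 0.141) or replicate 3 (0.23, 0.117). It was also lost without control replicate 1 (0.20, 0.154) or replicate 2 (0.22, 0.118), and it held without control replicate 3 (0.28). With the median of expressed genes on its chromosome removed the difference was 0.36.

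Ptprz1, the receptor phosphatase for both pleiotrophin and midkine, had log2 values of 3.03, 3.22 and 2.80 in HA-Fbxl10 samples, against 2.90, 2.78 and 2.94 in controls. The groups overlapped, and both means lay below the lower quartile of genes, the only one of the 7 genes of which this was true. The difference was 0.15 ± 0.10 (SE, 95% interval -0.09 to 0.38, limma adjusted p = 0.403). These data therefore do not show whether Ptprz1 was expressed at all.

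Alk, a receptor tyrosine kinase known from the developing nervous system, had log2 values of 4.87, 4.85 and 4.91 in HA-Fbxl10 samples, against 4.97, 4.74 and 4.71 in controls. The HA-Fbxl10 values lay inside the control range, with control replicate 1 the highest of the 6. The difference was 0.07 ± 0.08 (SE, 95% interval -0.11 to 0.26, limma adjusted p = 0.623), and both means lay between the lower quartile and the median of genes, so a change could be understated as for Mdk.

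Sdc3, a heparan sulfate carrying syndecan that binds pleiotrophin, had log2 values of 6.21, 6.16 and 6.001 in HA-Fbxl10 samples, against 6.13, 6.14 and 6.15 in controls. The controls were nearly equal and the HA-Fbxl10 values lay around them. The difference was -0.02 ± 0.07 (SE, 95% interval -0.18 to 0.14, limma adjusted p = 0.915). Its sign was not settled, since it turned to 0.04 without HA-Fbxl10 replicate 3, to 0.04 under both other scalings and to 0.17 when the running median of neighbouring genes was removed. Both Sdc3 means lay above the median of genes, and the change of Ptn differed from that of Sdc3 by -1.49 ± 0.12 on the log2 scale (SE, exact two-sided permutation p = 0.1, adjusted 0.12).

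**Figure D3:**
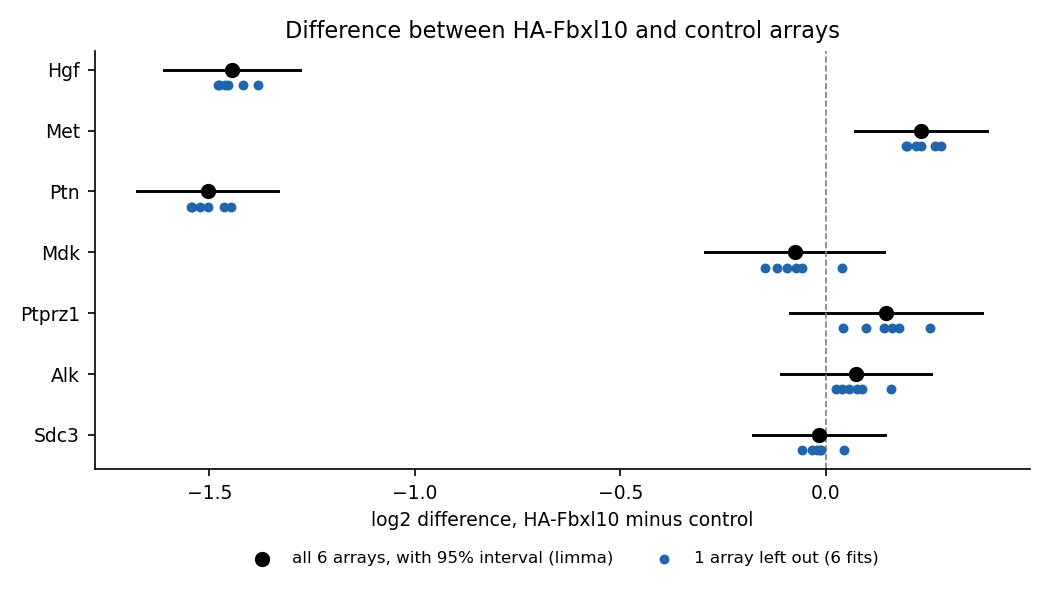
Log2 difference of HA-Fbxl10 minus control (horizontal axis) for the 7 genes, with limma's 95% interval over all 6 arrays in black and the 6 values with 1 array left out in blue. Hgf and Ptn stay between -1.55 and -1.38 with any 1 array left out, Met stays above 0, and the intervals of the other 4 genes include 0.

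The proteases and inhibitors that control Hgf activation were mostly dim. Of 11 genes measured, 10 missed the threshold, 0 rose and 1 fell, with a list median of 0.00. This share of 9.09% stands against 21.1% of all genes, and against 5.21% of genes at or below the median level (1.84% higher and 3.37% lower), where 10 of the 11 lay. The gene that fell was Plau, the urokinase gene whose product can cut the Hgf precursor, with a mean log2 level of 8.16 ± 0.07 in HA-Fbxl10 samples and 8.54 ± 0.06 in controls (SD, n = 3 each, difference -0.38, limma adjusted p = 0.00356). It was also the 1 gene of the list whose mean level lay above the median of all genes. The activator gene Hgfac had a difference of -0.12, the matriptase gene St14 of 0.07, and the inhibitor genes Spint1 and Spint2 of 0.04 and 0.00. Mst1r, which encodes the receptor closest to Met, had a difference of 0.11.

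Adaptors and effectors of Met went both ways. Of 23 genes measured, all above the median level, 6 rose, 4 fell and 13 did not pass the test, with a list median of 0.07. Among all genes above the median level 37% passed, 19.2% higher and 17.8% lower, and 43.5% of the list did. The docking protein gene Gab2 had a log2 level of 5.69 ± 0.02 in HA-Fbxl10 samples and 5.06 ± 0.04 in controls (SD, n = 3 each, difference 0.63, limma adjusted p = 0.000125). Its control mean lay below the median of genes in that group (5.38), so the size of this rise is uncertain. Pik3r1, the regulatory subunit of phosphoinositide 3-kinase, differed by 0.56. Sh3kbp1, an adaptor of receptor internalisation, had 7.75 ± 0.13 in HA-Fbxl10 samples and 8.40 ± 0.07 in controls (difference -0.65, adjusted p = 0.000494), and the adaptor gene Shc1 differed by -0.58. Gab1, the main docking protein of Met, rose by 0.42 and was named after its values were seen, while Grb2 (-0.20, adjusted p = 0.0705) and Cbl (0.30, 0.0666) did not pass. Removing a running median of 31 neighbouring genes left 3 of the 23 genes past the threshold. Under it Shc1 went to -0.15 (adjusted p = 0.292), Gab1 to 0.12 (0.443) and Pik3r1 to 0.31 (0.0177).

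Feedback genes of the ERK pathway and ETS factors, which respond to receptor tyrosine kinases in general, moved in both directions. Of 14 genes measured, 6 rose, 2 fell and the other 6 missed the threshold, with a list median of 0.28, and 11 lay above the median level. So 57.1% passed, against 21.1% of all genes and 37% of those above the median level. The ERK phosphatase gene Dusp6 had log2 levels of 8.53, 8.55 and 8.36 in HA-Fbxl10 samples, against 7.64, 7.62 and 7.67 in controls (difference 0.84 ± 0.07, SE, limma adjusted p = 6.4e-05). Etv1, an ETS factor gene, differed by 0.97 ± 0.16 and was the noisier of the pair, with values of 4.92, 5.64 and 5.08 in HA-Fbxl10 samples against 4.08, 4.26 and 4.38 in controls. Both Etv1 means lay below the median of genes, so the size of this rise is uncertain. Errfi1, a feedback inhibitor of the EGF receptor, differed by -0.77 and Dusp5, a nuclear ERK phosphatase gene, by -0.63. Etv4 (0.65), named after its values were seen, was the third largest rise.

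**Figure D4:**
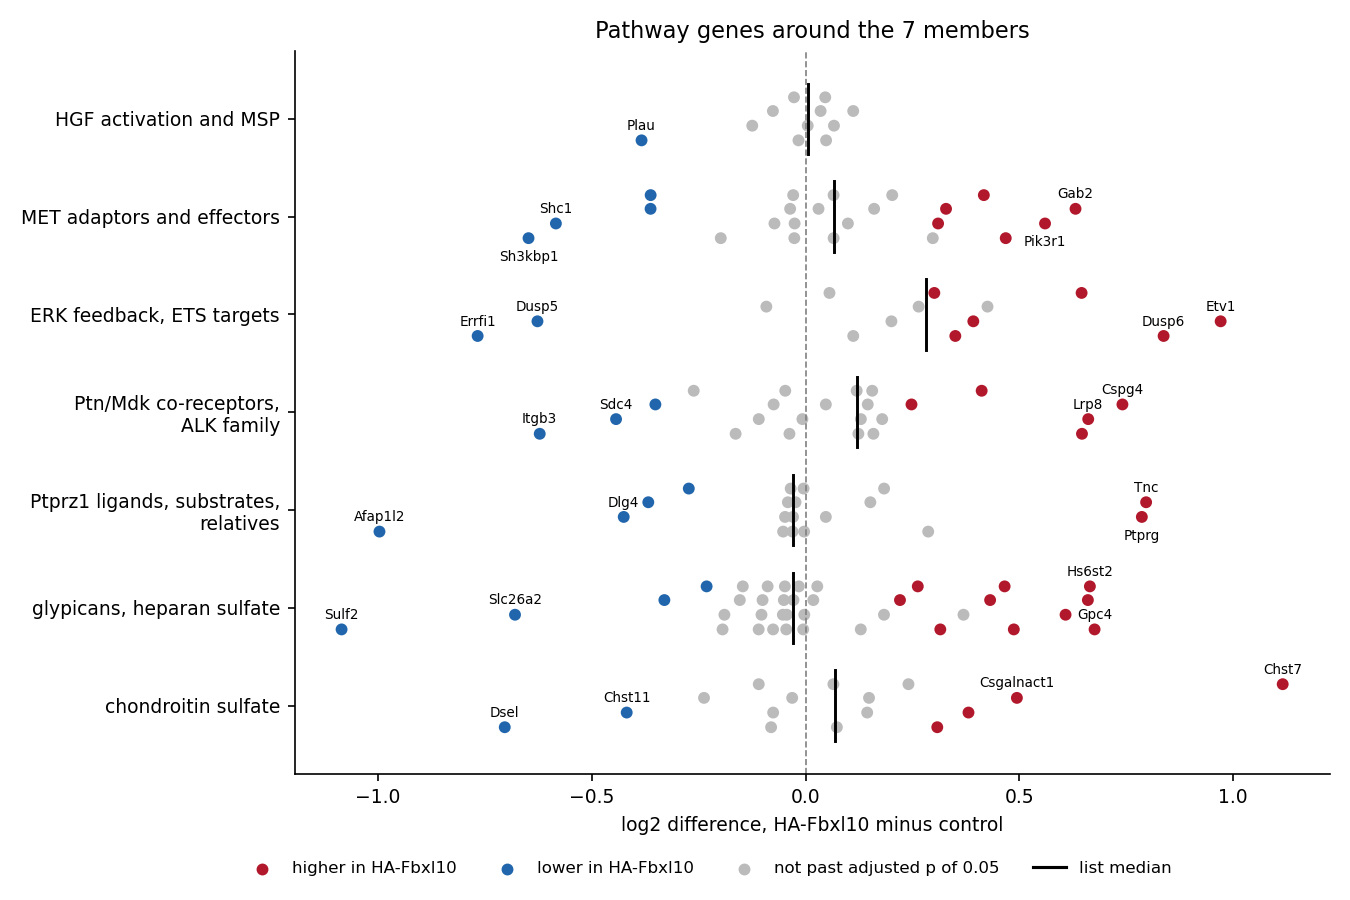
Log2 difference of HA-Fbxl10 minus control (horizontal axis) for every measured gene of 7 pathway lists (rows), coloured by limma's test at an adjusted p of 0.05, with black lines at the list medians. Every list but that of Hgf activation holds coloured points on both sides, and Chst7 at 1.12 and Sulf2 at -1.09 are the farthest out.

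Other receptors and partners of pleiotrophin and midkine, with the relatives of Alk, also split. Of 23 genes measured, 5 rose, 3 fell and 15 did not pass the test, with a list median of 0.12. The 34.8% that passed stand against 21.1% of all genes and 37% of those above the median level, where 15 of the 23 lay. The proteoglycan gene Cspg4 differed by 0.74 and had log2 levels of 6.56 ± 0.10 in HA-Fbxl10 samples and 5.81 ± 0.02 in controls (SD, n = 3 each, limma adjusted p = 0.000117), and it went to 0.47 with the running median removed. The lipoprotein receptor gene Lrp8 differed by 0.66. Of the syndecans other than Sdc3, Sdc1 rose by 0.41 (0.27 with the running median removed, adjusted p = 0.0303), Sdc4 fell by 0.44, and Sdc2 had a difference of 0.18 (adjusted p = 0.186). The choice to name Sdc1 and Sdc2 came after their values. The integrin gene Itgb3, whose product pairs with the alpha v chain, fell by 0.62. Its HA-Fbxl10 mean of 4.76 lay below the median of genes, so the size of this fall is uncertain. Ltk, the relative of Alk, had a difference of -0.11, and Alkal1 and Alkal2, which encode ligands of both kinases, had differences of -0.01 and -0.07. Ncl, whose product nucleolin also binds both growth factors, had a difference of 0.05 (adjusted p = 0.691).

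Among other ligands, substrates and relatives of Ptprz1, 2 of 19 genes rose, 4 fell and 13 missed the threshold, with a list median of -0.03. That is 31.6%, against 21.1% of all genes and 37% of those above the median level, which 9 of the 19 were. Ptprg, the phosphatase gene most like Ptprz1, had log2 values of 6.82, 6.86 and 6.86 in HA-Fbxl10 samples, against 6.06, 5.98 and 6.14 in controls (difference 0.79 ± 0.07, SE, limma adjusted p = 6.29e-05). Unlike Ptprz1 it lay above the median of genes in both groups. Tnc, which encodes the matrix ligand tenascin C, differed by 0.80. Afap1l2, an actin-associated adaptor gene, differed by -0.997 (4.62 ± 0.02 in HA-Fbxl10 samples and 5.62 ± 0.13 in controls). Its HA-Fbxl10 mean lay below the median of genes, so the size of this fall is uncertain. Dlg4, which encodes a synaptic scaffold protein, differed by -0.43, or -0.27 (limma adjusted p = 0.0429) with the running median removed.

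Genes that build and edit heparan sulfate, which holds these ligands at the cell surface, included changes in opposite directions within 1 enzyme pair. Of 37 genes measured, 10 rose, 4 fell and 23 did not pass the test, with a list median of -0.03, so 37.8% passed against 21.1% of all genes and 37% of those above the median level. Of the 37 genes, 24 lay above that level. Both extracellular sulfatases, which remove 6-O-sulfate from the chains, changed. Sulf2 had log2 values of 5.76, 5.60 and 5.62 in HA-Fbxl10 samples, against 6.86, 6.46 and 6.92 in controls, a difference of -1.09 ± 0.12 (SE, limma adjusted p = 0.000234). Sulf1, named after its values were seen, had 8.38, 8.53 and 8.12 in HA-Fbxl10 samples, against 7.68, 7.56 and 7.81 in controls, a difference of 0.66 ± 0.11 (adjusted p = 0.00241). Neither pair of groups overlapped. Hs6st2, a 6-O-sulfotransferase gene, differed by 0.66 and the glypican gene Gpc4 by 0.68, while the sulfate transporter gene Slc26a2 differed by -0.68.

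Chondroitin sulfate synthesis, which makes the chains of Ptprz1, held the largest rise of all 7 lists. Of 16 genes measured, 4 rose, 2 fell and 10 did not pass the test, with a list median of 0.07. With 13 of the 16 above the median level, 37.5% passed, against 37% of all genes above it and 21.1% of all genes. Chst7, a chondroitin 6-O-sulfotransferase gene, had log2 values of 8.76, 8.78 and 8.75 in HA-Fbxl10 samples, against 7.67, 7.61 and 7.66 in controls, with very little spread in either group. Its difference was 1.12 ± 0.06 (SE, limma adjusted p = 4.3e-06). Csgalnact1, whose product starts the chain, differed by 0.49 and went to 0.26 (adjusted p = 0.0493) with the running median removed. Dsel, of the dermatan sulfate epimerases, differed by -0.70. The 4-O-sulfotransferase gene Chst11 differed by -0.42, a call that ended when the chromosome median was removed (-0.31, adjusted p = 0.0602).

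Position on the chromosome was one feature that the choice of genes did not use. Met, Ptprz1 and Ptn lie on chromosome 6, where the 478 genes above the median level had a median log2 difference of -0.13. Hgf lies on chromosome 5, where 660 such genes had a median of 0.17, opposite in sign to the fall of Hgf. None of the 10 measured genes around Ptn passed the test, and their differences ran from -0.12 to 0.18. Its nearest neighbours Mir490 and Dgki had differences of 0.01 and 0.02, and both were dim. Of the 10 genes 7 lay below the median level, where fewer genes pass, and 3 lay above it. The fall of Ptn was -1.33 after removal of a running median of 31 neighbouring genes.

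Over all genes 21.1% passed the test, with 37% of those above the median level and 5.21% of those at or below it. Of the 10 neighbours, 5 lay above that level for Hgf, Met and Alk, 8 for Mdk, 3 for Sdc3 and 2 for Ptprz1. The counts below describe these neighbours and were not tested against those shares. Around Hgf 3 of 10 measured genes rose, 1 fell and 6 missed the threshold. The gene next to it, the semaphorin gene Sema3c, had a log2 level of 8.71 in HA-Fbxl10 samples and 7.50 in controls, a difference of 1.20 ± 0.07 (SE, limma adjusted p = 5.31e-06). Other semaphorin genes nearby went opposite ways, Sema3a by 0.55 and Sema3e by -0.34, or 0.32 and -0.55 with the running median removed. Phtf2 differed by 0.37, a call lost without HA-Fbxl10 replicate 2 (adjusted p = 0.0621), control replicate 1 (0.078) or control replicate 2 (0.0562) and with the running median removed (0.13, 0.439). Cacna2d1, on the other side, had a difference of 0.10 (adjusted p = 0.357). Around Met, Tes differed by -1.15, St7 by 0.32 and Cftr, which was dim, by 0.36. The nearest neighbours of Met, Cav1 (-0.10) and Capza2 (0.07), did not pass. Next to Alk, Clip4 differed by -1.21 and Ypel5 by -0.09. With the running median removed Ypel5 went to -0.40 (limma adjusted p = 0.0047). Lbh, a transcription cofactor gene 2 places away from Alk, differed by 0.79 (0.51 with the running median removed). Around Mdk 3 of 10 genes fell, the autophagy gene Atg13 (-0.49), Phf21a (-0.38) and the peroxisome gene Pex16 (-0.36). Around Sdc3 2 of 10 fell, Zcchc17 (-0.32) and the mitochondrial reductase gene Mecr (-0.47), and around Ptprz1 1 of 10, Cped1 (-0.46), which was dim. The calls of Pex16 and Zcchc17 depended on single arrays. That of Pex16 was lost without HA-Fbxl10 replicate 1 or 2 or control replicate 2 (adjusted p of 0.0525, 0.0659 and 0.0601). That of Zcchc17 was lost without replicate 1 of either group (0.0728 in HA-Fbxl10, 0.0846 in controls) and with the running median removed (-0.21, 0.142). The nearest neighbours of Ptprz1, Fam3c and Aass, of Mdk, Chrm4 and Dgkz, and of Sdc3, Snord85 and Laptm5, did not pass the test.

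**Figure D5:**
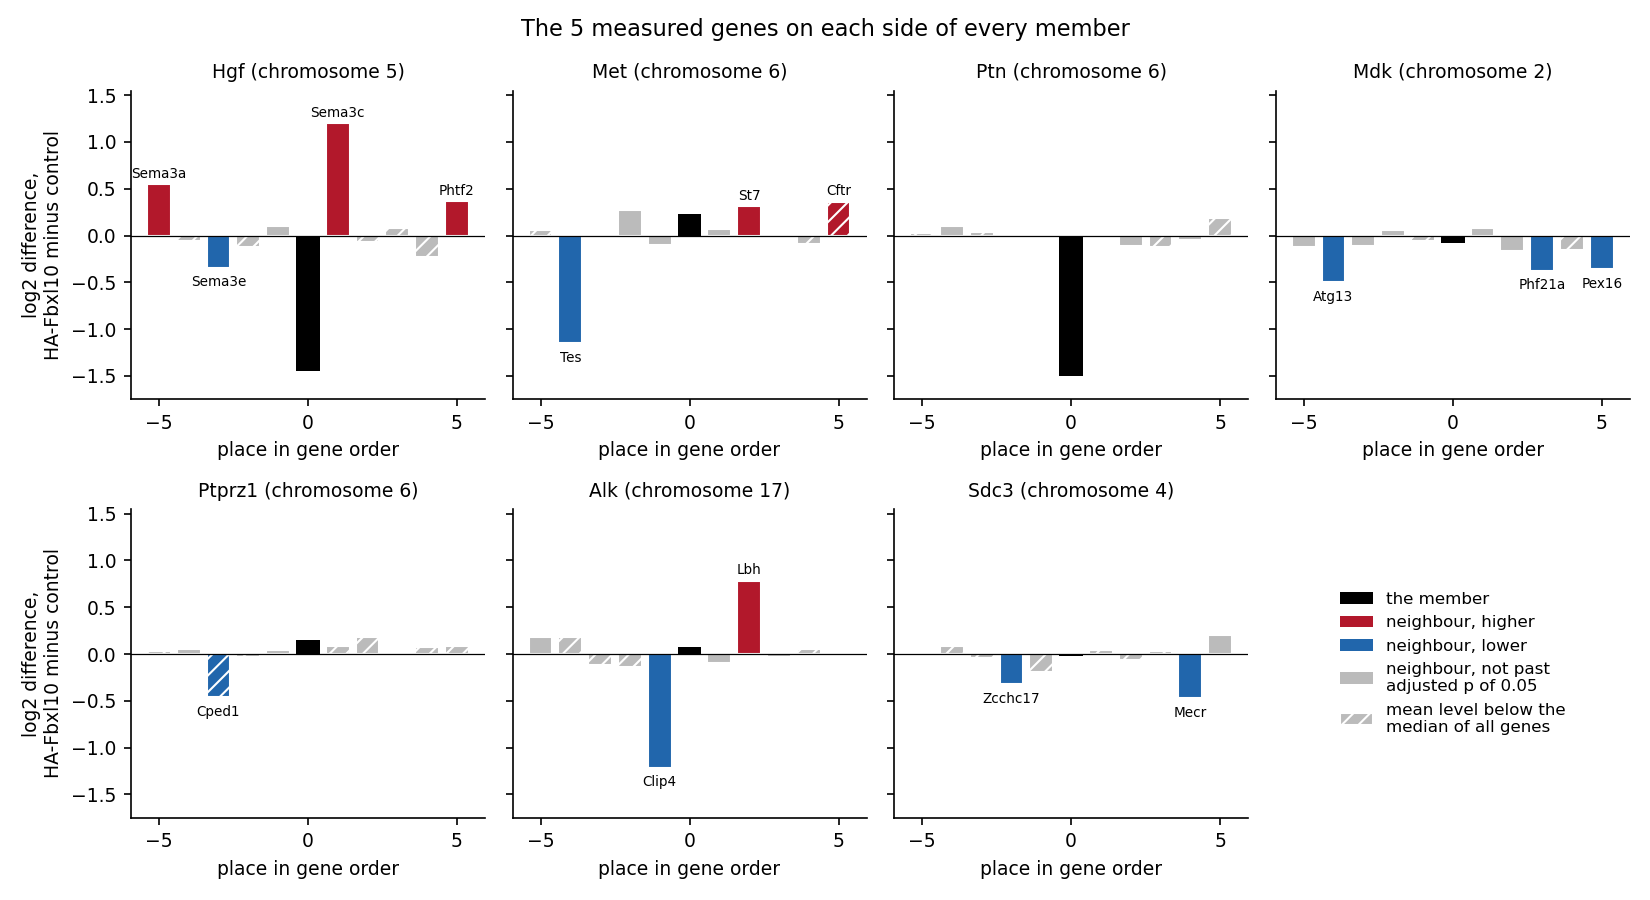
Log2 difference of HA-Fbxl10 minus control (vertical axis) for each of the 7 genes (black, place 0) and the 5 measured genes on each side in gene order (horizontal axis), coloured by limma's test at an adjusted p of 0.05, with hatching for genes below the median level. Ptn falls among 10 neighbours that did not pass the test, 7 of them below the median level, and Hgf falls beside Sema3c, which is higher at 1.20.

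Genes whose profiles lay nearest were found by the root-mean-square difference over the 6 arrays, after each profile was centred on its own mean. For Hgf these were Mmp9 (gelatinase B, 0.0459 on the log2 scale), Ecm1 (an extracellular matrix protein, 0.0577) and Crip1 (a LIM domain protein, 0.0701). For Ptn they were Tmem176b (a membrane protein, 0.0845), Ecm1 (0.0852) and Ccl2 (a monocyte attractant, 0.0891). Hgf and Ptn stood 0.133 apart, and Ecm1 was near to both. For Met the nearest were Hps5 (0.0093), Fam20b (0.0182), a kinase gene of the linkage region of sulfated sugar chains, and Gpat3 (0.0194). Fam20b was called only narrowly (0.22, adjusted p = 0.0408), and Hps5 did not pass (adjusted p = 0.058). The call of Gpat3 (0.26, limma adjusted p = 0.0312) was lost without HA-Fbxl10 replicate 2 (0.1) or 3 (0.0962) or control replicate 1 (0.111) or 2 (0.092). It was also lost with the replicate number as a block (0.0543) and with the chromosome (0.47) or running median (0.421) removed. These genes were picked for likeness to a pattern that is mostly the difference between the groups, so they carry no test here.

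Fibroblast markers were high on all arrays, with 9 of 10 above the median level. Of the 10, 0 rose and 3 fell (30%), among them Col3a1 (-0.79) and S100a4 (-0.64, or -0.41 and -0.31 with the chromosome or running median removed). Over all genes 21.1% passed, and 37% of those above the median level did (19.2% higher and 17.8% lower). The mean log2 level of the 10 markers ran from 9.90 to 10.01 in HA-Fbxl10 samples and from 10.08 to 10.14 in controls. Of 12 epithelial markers, of the cells in which Met is best known, 0 passed limma's test and 2 lay above the median level, and Epcam was at 3.26 in both groups. Among all genes at or below the median level 5.21% passed. Among neural and glial genes, 13 in all, 0 rose and 2 fell, Tubb3 by 0.58 and Nes by 0.30. The call of Nes ended without any 1 array other than HA-Fbxl10 replicate 2 (adjusted p of 0.0591 to 0.15). The mean log2 level of this list ran from 4.30 to 4.34 in HA-Fbxl10 samples and from 4.35 to 4.44 in controls, and Sox10, Gfap and Mbp did not pass the test. Of 8 macrophage markers Cd14 fell (-0.45), which lost its call when replicate 1 or 3 of either group was left out (0.085 to 0.119 as adjusted p), and 4 markers, Adgre1 and Itgam among them, lay below the lower quartile. Of 8 muscle markers 0 passed, and of 8 endothelial markers Kdr rose (0.51). In both lists 0 genes lay above the median level. The share that passed was 12.5% for the endothelial list and 12.5% for the macrophage list, where 2 genes lay above that level. Kdr was dim, at 4.205 in HA-Fbxl10 samples and 3.692 in controls, so the size of its rise is uncertain. The part of these markers in the falls of Hgf and Ptn was not tested.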

How the data were processed

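RNA of 6 samples, 300 ng per array per the labels' protocols, was hybridised to Affymetrix arrays. The deposited table gives 1 log2 value per probe set and array, which the authors obtained with RMA, per the submitters' processing notes. The sources used here name neither its version and settings nor a genome build. Because RMA equalises the arrays, it hides any shift shared by most genes, and it compresses low values. Without detection calls or scan dates, no batch could be tested. Of the 35556 probe sets, 21789 had 1 gene name, 1621 had several and 12146 are unnamed here. Symbols were updated through Entrez identifiers to the RefSeq table of GRCm38.p6 (21698 probe sets) or accessions (3), and 88 kept the annotation's symbol. The probe set with the highest mean was kept per gene, giving 19936 genes.

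The comparison used limma 3.58.1 (R 4.3.3) with moderated two-sided tests, p-values adjusted over all genes by Benjamini-Hochberg and a threshold of 0.05. Differences are HA-Fbxl10 minus control. On simulated data for this comparison (19936 genes, 200 changed among those above the median level), 98.5% of changes of 0.5 and 100% of changes of 1 and 2 on the log2 scale were recovered, with 14 false calls among 213. The simulated noise was independent and normal, with the spread between these samples. Recovery for genes as dim as Hgf, Mdk, Ptprz1 and Alk was therefore not tested. Nor were false calls from differences between cultures or clones.

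The 7 genes and the lists were chosen with earlier results of these data known. Genes named are the 7, Kdm2b, from each pathway list the 2 largest rises and 2 largest falls past the threshold without overlap, the 2 largest changes of each marker list, the 3 nearest profiles of each called gene and the nearest neighbours. Other genes named were chosen after their values were seen. Alternatives were quantile normalisation, subtraction of array medians, no dim genes, averaged probe sets, variance trends, weights per array, a block for the replicate number, each array left out, an adjusted p of 0.01, all probe sets, and removal of chromosome or running medians from genes above the median level (which leaves Hgf, Mdk, Ptprz1 and Alk as they are). The main test did not pair samples by replicate number, and whether the numbers pair them is not known. Figures used matplotlib 3.10.9.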

Additional observations from a re-analysis of the deposited data

How the results depend on the processing

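Hgf and Ptn kept their direction and their call under all 18 alternatives, with log2 differences of -1.48 to -1.38 and -1.55 to -1.33 and limma adjusted p of at most 0.000389. Several alternatives could not move these differences. Averaging probe sets could not, since each gene had 1. Variance trends, the stricter threshold and the test of all probe sets bear only on p-values. Removal of chromosome or running medians left Hgf as it was. With 1 array left out the difference of Hgf ran from -1.48 to -1.38 and that of Ptn from -1.55 to -1.45. Met kept its direction (0.20 to 0.36), and its call ended with the replicate number as a block (0.23, adjusted p = 0.0803), with all probe sets tested (0.23, adjusted p = 0.104), at an adjusted p of 0.01 (0.23) and without any 1 array other than control replicate 3 (0.20 to 0.28 over the arrays left out). So 2 or 3 of the 7 genes passed in every alternative. Ptprz1 could not be fitted without the dimmest 30% of genes, since it is one of them. Mdk turned to 0.0389 without HA-Fbxl10 replicate 2, and was as low as -0.15 with another array left out. Sdc3 turned to 0.0352 under quantile normalisation, to 0.0383 with array medians subtracted, to 0.069 with chromosome medians removed, to 0.17 with the running median removed, and ran from -0.059 to 0.0441 with arrays left out. Alk and Ptprz1 stayed above 0 and uncalled. Over all genes 4208 passed the threshold, 2536 at an adjusted p of 0.01 and 3208 to 3853 with arrays left out. Subtracting array medians moved the median of all genes by 0.05 and the share of calls that were higher to 62.9%, from 49.8%. The Met adaptor list had 3 genes past the threshold with the running median removed, against 10, and 9 to 12 with arrays left out. Of 89 other named genes, 60 kept direction and call under every alternative that gave them a value. Among those past the threshold only Nes turned, to 0.0855 with the running median removed. Cbl and Grb2, which had not passed, did so with array weights (limma adjusted p = 0.0339 and 0.046) and without the dimmest genes (0.0485 and 0.0446). Cbl also passed under quantile normalisation (0.0244), with array medians subtracted (0.0278), with both variance trends (0.0344 and 0.0349) and without control replicate 3 (0.0111). Hps5 passed under quantile normalisation (limma adjusted p = 0.0163), with array medians subtracted (0.0353) and without the dimmest genes (0.0381). It also passed with array weights (0.0406) and without control replicate 3 (0.036). Ypel5 passed only with the running median removed (0.0047). The other genes that turned had not passed the test. Fam3c turned to -0.0019 under quantile normalisation, and with array medians subtracted Alkal1 turned to 0.0474 and Adgre1 to 0.0476. Array weights turned Spint2 to -0.0065, Alkal1 to 0.0034, Gfap to -0.0327, Epcam to -0.0115, Adgre1 to 0.0125 and Dgki to -0.0057. Chromosome medians turned Cacna2d1 to -0.0625 and Cav1 to 0.0225, and the running median turned Cacna2d1 to -0.1231. With 1 array left out, values on both sides of 0 were found for Spint1 (-0.0050 to 0.1115), Spint2 (-0.0646 to 0.0442), Alkal1 (-0.0726 to 0.0287), Alkal2 (-0.1571 to 0.0284), Sox10 (-0.0520 to 0.1661), Gfap (-0.1122 to 0.1087), Epcam (-0.0365 to 0.0243), Adgre1 (-0.0478 to 0.0303), Mir490 (-0.0443 to 0.0340), Dgki (-0.0406 to 0.0823) and Chrm4 (-0.1438 to 0.0204). Same-numbered samples deviated from their group means with correlations of 0.137, -0.313 and -0.0399. With so few samples per group these values depend on each other, so they cannot show whether the numbers pair the samples. With the replicate number as a block 3397 genes passed, and Met was the 1 of the 7 genes whose call it changed. No detection calls were available, so what can be said of dim genes such as Hgf in HA-Fbxl10 samples and Ptprz1 is limited.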
